A study of Rattus norvegicus with 32 samples.

Results

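The hippocampal transcriptome of adult male rats was examined for the interaction of fetal-neonatal iron deficiency with prenatal choline, that is, for genes on which choline acted differently under the 2 iron states. Members were the libraries of sequencing batch I, 16 of the 32 libraries of the series. They came from Sprague-Dawley rats aged 65 days, with 4 libraries in each of 4 diet groups: iron sufficient (IS), iron sufficient with prenatal choline (ISch), formerly iron deficient (FID) and formerly iron deficient with prenatal choline (FIDch). Dams of FID and FIDch rats ate a low-iron diet from early gestation into the first postnatal week, after which all groups received iron, and choline was given to the dams in later gestation. FID rats at this age therefore model a past, treated deficiency, and choline exposure had ended before birth. The rats of batch II, 16 females on the same diets, served for comparison, and sex and batch cannot be told apart. Hippocampal RNA was measured in bulk, so that fewer cells of a type and less RNA per cell cannot be told apart.

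Iron is a cofactor of the mitochondrial respiratory chain, of myelin lipid synthesis and of enzymes that make monoamine transmitters, and the hippocampus has a high demand for it while its pyramidal neurons mature. Choline is the precursor of phosphatidylcholine and acetylcholine and, through betaine, a methyl donor of one-carbon metabolism, by which it can reach DNA and histone methylation. In rodents, prenatal choline is known for lasting effects on hippocampal memory, also after early iron deficiency.

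The interaction was the choline effect in FID minus the choline effect in IS, (FIDch − FID) − (ISch − IS), on the log2 scale of CPM, counts relative to the total of the library after TMM scaling. A positive value means that the choline effect was higher in FID than in IS. All 16 libraries entered 1 edgeR quasi-likelihood model, and the criterion was a log2 value beyond 0.2 in either direction with an unadjusted p below 0.05. The totals were 3515806 to 9517503 counts per library with a median of 8007907, and the lowest total belonged to FIDch replicate 2, where a gene with a count of 0 could still stand at up to 3 counts, or 0.853 CPM.

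3 libraries lay apart from others in shares or summed levels of gene lists. These lists were chosen with earlier results of these data known. IS replicate 1 had the highest share of counts on cytosolic ribosomal protein genes, 0.761% against 0.533 to 0.665% in the other 15, and the lowest summed level of GABA receptor subunits, 3103 CPM against 3466 to 3495 CPM in the other IS libraries. FIDch replicate 2 had the lowest share of mitochondrially encoded counts, 5.81% against 6.71 to 6.87% in the other FIDch libraries. It lay apart within its group alone, as the ISch libraries held 5.95 to 6.65%. FID replicate 4 held 571 CPM of choroid plexus markers against 96.6 to 136 CPM in the other 15 libraries. Another set of 3, ISch replicates 1 and 2 and FIDch replicate 2, carry sample names written in another form. The part of these libraries in the results was not tested beyond the values given without them.

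Of 14314 genes tested, 2066 met the criterion for the interaction (14.4%), 979 with a higher choline effect in FID (6.84%) and 1087 with a lower one (7.59%). After Benjamini-Hochberg adjustment over all genes, 1 gene passed 0.05 (0.00699%), Sec23ip, and 455 passed 0.2 (3.18%). Without 1 library at a time the number of adjusted calls lay between 0 and 8, with 8 without FIDch replicate 2, and the number of genes at the criterion between 1464, without FIDch replicate 1, and 2627, without IS replicate 3. Calls in the following are therefore those of the unadjusted criterion unless an adjusted p is given.

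The choline effect itself met the criterion for 1792 genes in FID (12.5%; 6.39% higher and 6.13% lower) and for 1198 in IS (8.37%; 4.58% higher and 3.79% lower). An adjusted p below 0.05 by edgeR was reached by 264 genes in FID (1.84%) and 37 in IS (0.258%). 57 genes met the criterion under both iron states with opposite signs (0.398%), 22 of them higher with choline in FID and lower with choline in IS (0.154%) and 35 lower in FID and higher in IS (0.245%). In the same direction, 148 genes met the criterion under both iron states (1.03%). Among the 2066 genes of the interaction, the choline effect was at the criterion in FID alone for 800 (38.7%), in IS alone for 443 (21.4%), in both for 61 (2.95%) and in neither for 762 (36.9%). By sign alone, without any test, 27.6% of all genes were higher in FID and lower in IS with choline and 25.5% were lower in FID and higher in IS, while 24.2% were higher in both. Among the genes at the interaction criterion 91.4% had opposite signs, which the contrast itself favours. Opposite signs were thus common among all genes, and opposite effects that each met the criterion were few.

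**Figure D1:**
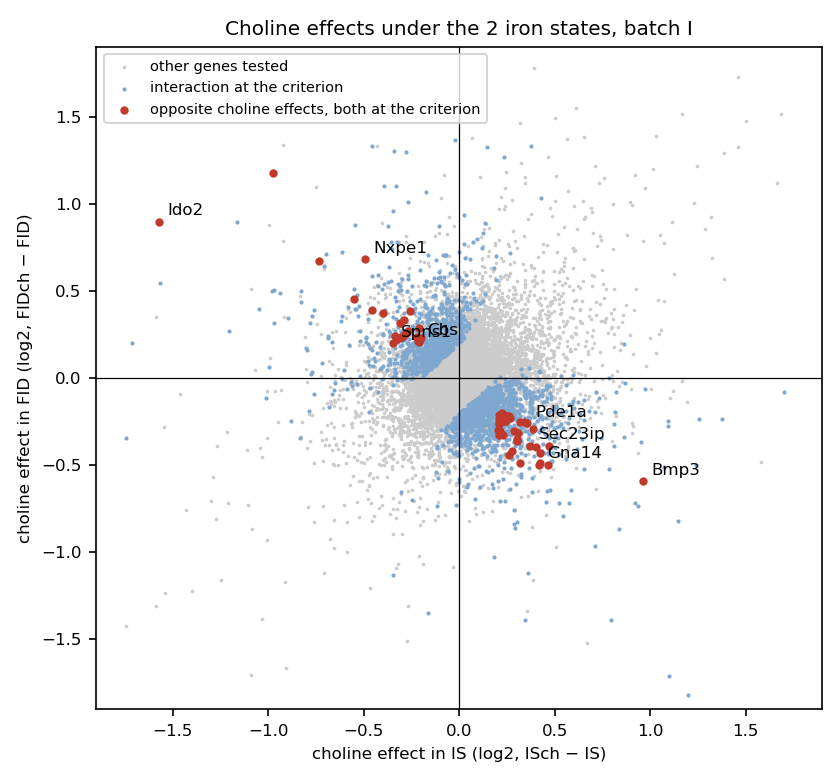
Choline effect in IS (ISch − IS, horizontal) and in FID (FIDch − FID, vertical), both in log2, for 14279 of the 14314 genes tested in batch I (35 lie beyond the axes). Each point is a gene: grey, not at the interaction criterion; blue, at the criterion; red, the 57 genes at the criterion with opposite signs under the 2 iron states. Red points lie in the upper left (22 genes) and lower right (35 genes), with Ido2 and Bmp3 far from the origin.

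For 4 of these genes, the 2 with the lowest interaction p in each direction, the 250 bases before the transcription start are shown as the regulatory sequence next to the genes that lead each direction. They are RefSeq sequences of assembly GRCr8, written 5′ to 3′ on the strand of the gene, with matches to a GC box (GGGCGG) or a CCAAT box (CCAAT) on either strand in capitals. Sec23ip lies on the plus strand at chr1:192751131-192751380, Bmp3 on the minus strand at chr14:11041283-11041532, Spns1 on the minus strand at chr1:190379943-190380192 and Neu1 on the minus strand at chr20:3906384-3906633.
Sec23ip: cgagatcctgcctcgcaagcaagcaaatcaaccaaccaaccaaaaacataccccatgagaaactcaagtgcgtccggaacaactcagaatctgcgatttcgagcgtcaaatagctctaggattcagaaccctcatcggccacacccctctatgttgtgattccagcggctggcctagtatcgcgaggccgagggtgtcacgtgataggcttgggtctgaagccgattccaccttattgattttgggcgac
Bmp3: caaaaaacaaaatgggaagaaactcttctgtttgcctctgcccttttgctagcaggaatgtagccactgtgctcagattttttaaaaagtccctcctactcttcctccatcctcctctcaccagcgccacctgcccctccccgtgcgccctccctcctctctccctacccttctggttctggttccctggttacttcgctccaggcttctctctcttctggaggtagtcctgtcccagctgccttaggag
Spns1: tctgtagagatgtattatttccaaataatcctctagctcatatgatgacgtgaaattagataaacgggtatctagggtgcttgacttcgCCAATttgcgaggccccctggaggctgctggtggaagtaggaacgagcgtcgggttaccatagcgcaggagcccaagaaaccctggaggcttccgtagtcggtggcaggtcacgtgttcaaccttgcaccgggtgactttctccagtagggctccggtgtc
Neu1: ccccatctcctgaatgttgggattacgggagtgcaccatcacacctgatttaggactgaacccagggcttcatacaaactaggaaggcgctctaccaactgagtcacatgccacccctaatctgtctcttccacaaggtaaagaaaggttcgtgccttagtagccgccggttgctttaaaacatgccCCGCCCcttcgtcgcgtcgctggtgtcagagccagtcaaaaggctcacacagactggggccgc
Sec23ip and Bmp3, both lower in FID and higher in IS with choline, hold neither motif in this window, whereas Neu1 holds 1 GC box and Spns1 holds 1 CCAAT box. Of the 57 genes, 49 had a promoter entry. A GC box was present in 15 of 29 promoters of genes lower in FID and higher in IS (51.7%) and in 14 of 20 of the other direction (70.0%), against 58.8% of the 10269 promoters matched to tested genes. A CCAAT box was present in 10 of 29 (34.5%) and 8 of 20 (40%), against 34.9%.

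Sec23ip, whose product binds Sec23 at sites where vesicles leave the endoplasmic reticulum, was the gene with an adjusted p below 0.05. It was measured at 65.3, 68.7, 82.5 and 75.8 CPM in IS, 101, 99.3, 84.6 and 92.5 in ISch, 101, 89.4, 81 and 92.6 in FID and 66.2, 75.2, 66.8 and 70.8 in FIDch. All ISch libraries were above all IS libraries and all FIDch libraries were below all FID libraries, and FIDch lay within or near the IS range. Its interaction was -0.76 ± 0.12 (log2 ± SE), the choline effect -0.39 ± 0.08 in FID and 0.37 ± 0.08 in IS, with an adjusted p of 0.0412 by edgeR. Over 27 alternatives the interaction ranged from -0.82 to -0.67, and its adjusted p reached 0.189.

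Bmp3, a secreted member of the bone morphogenetic protein family, was measured at 16.3, 17.4, 22.1 and 24.7 CPM in IS, 38.1, 31.6, 44.1 and 42.4 in ISch, 19.8, 29, 47.4 and 28.2 in FID and 16.8, 31.4, 19.7 and 18.5 in FIDch. The IS and ISch libraries did not overlap, while FIDch replicate 2 lay above 3 of the 4 FID libraries. For Bmp3, the interaction was -1.55 ± 0.31 (log2 ± SE), the choline effect -0.59 ± 0.22 in FID and 0.96 ± 0.22 in IS, with an adjusted p of 0.132 by edgeR.

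The other genes lower in FID and higher in IS with choline had varied roles. Pde1a, a calmodulin-dependent phosphodiesterase that hydrolyses cyclic nucleotides, stood at 90.4, 115, 103 and 103 CPM in IS, 121, 132, 137 and 135 in ISch, 114, 152, 124 and 129 in FID and 99.5, 91.8, 127 and 113 in FIDch, with no overlap between IS and ISch and an overlap between FID and FIDch. The Pde1a interaction was -0.61 ± 0.14. Gna14, a G protein alpha subunit of the Gq family, was found at 12.8, 15, 9.54 and 12 CPM in IS, 17.3, 16.9, 16.7 and 15.2 in ISch, 14.4, 17.2, 16.3 and 20.6 in FID and 9.59, 16.1, 13.3 and 11 in FIDch. ISch lay above IS throughout, and FIDch overlapped FID in replicate 2 alone, for an interaction of -0.91 ± 0.21. Csgalnact2, which starts chondroitin sulphate chains, had an interaction of -0.81 ± 0.18, with -0.49 in FID and 0.32 in IS. Gtf2a1, a subunit of the general transcription factor TFIIA, had -0.53 ± 0.12, and Casp8ap2, a nuclear protein with roles in histone gene transcription, had -0.47 ± 0.12. Akap10, an anchor of protein kinase A, had -0.66 ± 0.16, and IS replicate 1, at 19.2 CPM against 27.3 to 28.9 in the other IS libraries, lay apart.

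In the other direction, higher in FID and lower in IS with choline, Spns1 and Neu1 had the lowest interaction p. Spns1, a lysosomal transporter of lysophospholipids, was measured at 133, 117, 116 and 105 CPM in IS, 92, 92.8, 97 and 89 in ISch, 104, 101, 112 and 116 in FID and 129.7, 101, 129 and 135 in FIDch. The 4 ISch libraries lay below all IS libraries, and 3 of 4 FIDch libraries lay above all FID libraries. The Spns1 interaction was 0.55 ± 0.11, with 0.20 in FID and -0.35 in IS. Neu1, the lysosomal sialidase, was measured at 27.7, 25.6, 24.1 and 22 CPM in IS, 19.9, 18.2, 22.4 and 19.8 in ISch, 17.9, 18, 19.4 and 19.8 in FID and 26.6, 20.9, 22.2 and 22.9 in FIDch, with FIDch above FID in every library, an overlap of IS and ISch at 1 library of each, and an interaction of 0.63 ± 0.14.

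Cbs, which encodes cystathionine beta-synthase and diverts homocysteine from the methyl cycle into cysteine synthesis, was the member of the choline and one-carbon list with opposite effects. Its levels were 77.7, 73, 66.6 and 75.5 CPM in IS, 66.2, 66.9, 62.5 and 57.7 in ISch, 58.5, 65.7, 63 and 53.9 in FID and 74.9, 67, 64.2 and 72.5 in FIDch, and the 2 groups of each pair overlapped slightly. Its interaction, 0.42 ± 0.11, was composed of 0.21 in FID and -0.21 in IS, nearly equal in size. Fbxw4, an F-box protein, had an interaction of 0.58 ± 0.13. Lfng, a glycosyltransferase that modifies Notch receptors, had 0.65 ± 0.15, Zdhhc4, a palmitoyltransferase, had 0.55 ± 0.15, and Nxpe1 had 1.17 ± 0.30. Ido2, an enzyme of tryptophan breakdown, had the largest value of these 8, 2.47 ± 0.58, at few counts, 15, 10, 13 and 5 in IS, 2, 2, 8 and 5 in ISch, 10, 4, 11 and 9 in FID and 17, 7, 15 and 13 in FIDch, and the ISch libraries therefore have little precision.

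**Figure D2:**
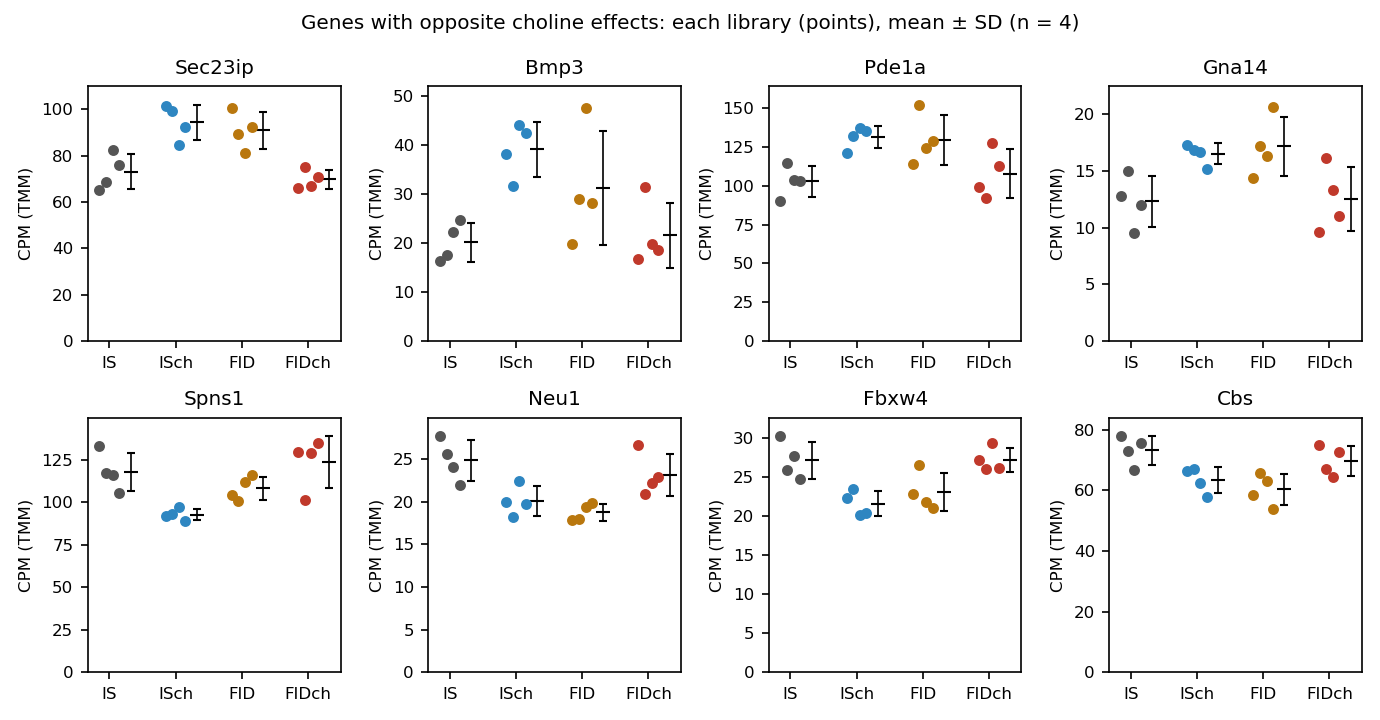
TMM-scaled CPM (vertical, from 0) of 8 genes with opposite choline effects in each of the 16 libraries of batch I, by diet group (horizontal). Points are libraries and black marks are means ± SD (n = 4). In the upper row (Sec23ip, Bmp3, Pde1a, Gna14) ISch lies above IS and FIDch below FID on average, and in the lower row (Spns1, Neu1, Fbxw4, Cbs) the order is the other way round.

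The 57 genes did not gather in any 1 of the lists of functions or cell types, of which 8 held exactly 1 of them and the other 47 none. They were Bmp3 (bone morphogenetic protein and TGF-beta signalling), Pde1a (plasticity kinases and phosphatases), Chrna7 (serotonin, dopamine, acetylcholine and adrenergic receptors), Ube3a (imprinted genes), Cbs (choline metabolism, also an astrocyte marker), Ermn (oligodendrocytes) and Cldn5 (endothelium). Without FIDch replicate 1 there were 29 opposite genes and without IS replicate 3 there were 116, so that their number rests on single libraries. Of the 57, 12 had no overlap of libraries in either pair of groups (0.894% of all genes), 24 had none between FIDch and FID (10.7% of all genes) and 30 none between ISch and IS (6.15%), and the choice of these genes favours such separation. All 35 genes lower in FID and higher in IS were also higher in FID than in IS without choline, and all 22 of the other direction were lower, and 48 of the 57 had an unadjusted p below 0.05 by edgeR for FID minus IS (8.75% of all genes, and 6.35% at the criterion), but these contrasts share the FID and IS libraries with the interaction. The values for lists below are counts of members at the interaction criterion, which includes genes that moved under 1 iron state alone, beside 6.84% higher and 7.59% lower over all genes.

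**Figure D3:**
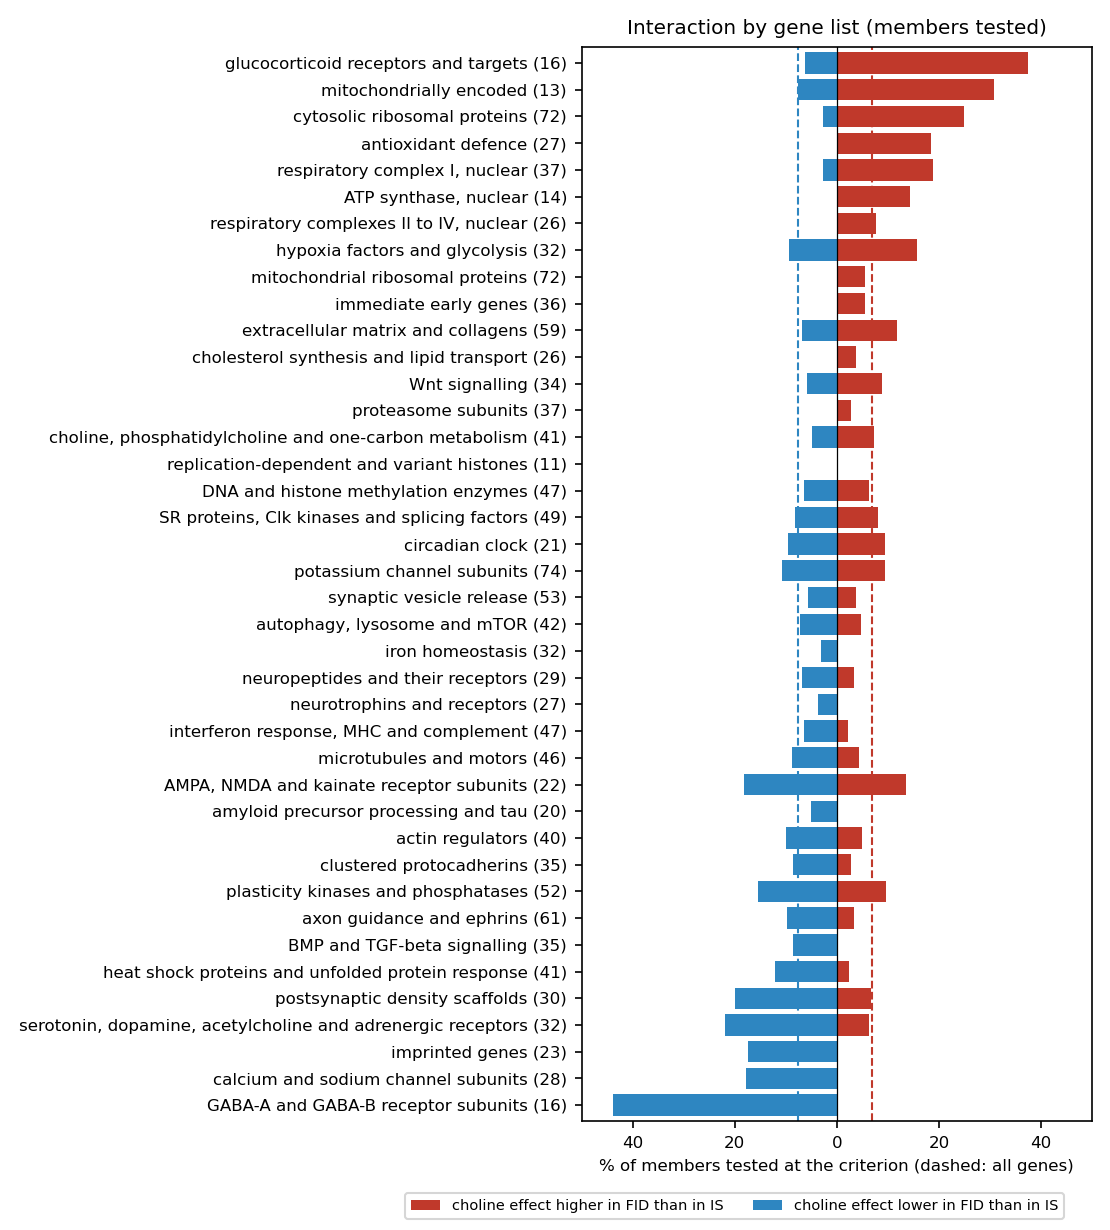
Percentage of tested members at the interaction criterion (horizontal, in %) in 40 lists of genes by function (vertical, number tested in brackets), lists with at least 10 members tested. Red bars show members with a higher choline effect in FID and blue bars members with a lower one, and dashed lines mark 6.84% and 7.59% over all genes. The glucocorticoid list (6 of 16 higher) lies at one end and the GABA receptor list (7 of 16 lower) at the other.

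GABA receptor subunits, the ion channels and G protein-coupled receptors of inhibitory transmission, had the highest share of members with a lower choline effect in FID, 7 of 16 at the criterion and none higher. The median interaction over the 16 was -0.25, against 0.01 over all genes, with a median choline effect of -0.23 in FID and 0.00 in IS. By sign alone, 8 of 16 were lower in FID and higher in IS with choline, against 25.5% of all genes. Most of the difference came from FID, where 7 members were lower at the criterion and in IS 1 was higher.

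For Gabrb2, a beta subunit of GABA-A receptors, whose values were 29.3, 60.9, 59.2 and 63.2 CPM in IS, 63.6, 55.4, 72.5 and 67.5 in ISch, 66.1, 75, 72.8 and 62.4 in FID and 46.2, 54.8, 55.5 and 55 in FIDch, IS replicate 1 held the lowest level of the 16, and the interaction was -0.68 ± 0.23, or -0.47 without that library. Gabra2 had -0.34 ± 0.13, and -0.22 without it. The count for the list was 6 of 16 without IS replicate 1 and 6 to 8 over all single libraries left out.

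Glutamate receptor subunits split in both directions. Of 22 AMPA, NMDA and kainate subunits, 3 had a higher choline effect in FID and 4 a lower one, and these counts were 2 and 2 without IS replicate 1, while 7 were lower without IS replicate 3. Gria2, the AMPA subunit that sets calcium permeability, had an interaction of -0.32 ± 0.10, whereas Grik5, a kainate subunit, had 0.28 ± 0.08 and Grin2c, an NMDA subunit, 0.32 ± 0.11. Of 7 metabotropic receptors, Grm5 alone met the criterion, at -0.49 ± 0.19. Gria2 and Grm5 were weakest without IS replicate 1, at -0.23 and -0.33. Postsynaptic scaffolds had 6 lower and 2 higher of 30. Dlgap3, a linker of PSD-95 to Shank, had 0.33 ± 0.08, with 0.20 in FID and -0.13 in IS, and Lrrtm2, a synaptic adhesion protein whose gene overlaps Ctnna1 in RefSeq and whose counts are uncertain for that reason, had -0.43 ± 0.11.

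Ion channel subunits were counted by the ion they pass. All 5 of the 28 calcium and sodium channel subunits at the criterion were lower, with 4 to 7 lower and 0 to 2 higher over single libraries left out. Cacnb4, a calcium channel beta subunit, had an interaction of -0.61 ± 0.20 and Scn3a, a sodium channel, had -0.52 ± 0.18, and the choline effect was 0.32 and 0.41 in IS. Over single libraries left out, both interactions were weakest without IS replicate 1, at -0.43 and -0.41. The potassium channel list had 8 lower and 7 higher of 74, and over single libraries left out the lower count ran from 6 (such as without FID replicate 3) to 13 (without IS replicate 3) and the higher count from 3 (without IS replicate 2) to 8. Kcnab1, a beta subunit of Shaker channels, had -0.36 ± 0.10, with a choline effect of -0.36 in FID and 0.00 in IS, while Kcnh7, a channel of the ERG family that overlaps Gca in RefSeq, had -1.20 ± 0.36, with -0.34 in FID and 0.86 in IS. Kcnt2, a sodium-activated channel, had -0.45 ± 0.13. The Kcnab1 value thus came from FID and the Kcnh7 value mainly from IS.

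Kinases and phosphatases of synaptic plasticity had 8 lower and 5 higher of 52. The higher count was 1 without FID replicate 4 or without FIDch replicate 1, and over all single libraries left out the lower count ran from 6 to 11. Ppp1cb, a catalytic subunit of protein phosphatase 1, was measured at 382, 398, 391 and 391 CPM in IS, 409, 381, 403 and 408 in ISch, 407, 442, 382 and 426 in FID and 329, 345, 362 and 341 in FIDch. FIDch lay below FID in every library and IS and ISch overlapped, for an interaction of -0.30 ± 0.07. Prkcb, a protein kinase C, had -0.46 ± 0.15, with -0.18 in FID and 0.28 in IS, and -0.33 without IS replicate 1.

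Receptors of the modulatory transmitters had 7 of 32 lower and 2 higher. Chrna7, the alpha7 nicotinic subunit, was among the 57 genes with opposite effects. It stood at 43, 58.9, 59.2 and 60.4 CPM in IS, 63.3, 63.2, 64.1 and 64.5 in ISch, 60.9, 72, 73.5 and 62.6 in FID and 54.3, 57.9, 60.8 and 55.7 in FIDch. FIDch lay below all FID libraries and ISch above all IS libraries, and the interaction was -0.44 ± 0.13, or -0.34 without IS replicate 1. Htr1b, a presynaptic serotonin receptor, had -0.67 ± 0.19, from -0.17 in FID and 0.51 in IS, and -0.51 without IS replicate 1. Htr4, a serotonin receptor coupled to cAMP, had -0.86 ± 0.24, and -0.69 without IS replicate 1. Chrnb4 had -1.97 ± 0.56 at a low level of 0.379 to 2.50 CPM. Among 29 neuropeptides and their receptors, 2 were lower and 1 higher. Nts, the precursor of neurotensin, had -0.79 ± 0.21 and Crhr1, the receptor of corticotropin-releasing hormone, had 1.13 ± 0.32, with a choline effect of -0.77 in IS.

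Cytosolic ribosomal proteins leaned the other way, with 18 of 72 higher and 2 lower and a median interaction of 0.18, from 0.13 in FID and -0.05 in IS. The count moved with single libraries. Without IS replicate 1, which held the highest ribosomal protein share, 7 were higher and the median was 0.09, and without IS replicate 3 the number was 31. Rplp1, a protein of the ribosomal stalk, was measured at 157, 81.2, 69.2 and 81.1 CPM in IS, 104, 106, 92 and 89.1 in ISch, 75.8, 67.6, 68.6 and 65.7 in FID and 123, 111, 112 and 111 in FIDch. FIDch lay above FID in every library, and IS replicate 1, at 157 CPM, exceeded every other library. The Rplp1 interaction was 0.72 ± 0.24, or 0.38 without IS replicate 1. Rps15 had 0.46 ± 0.14 and Rpl29 had 0.42 ± 0.12. Genes of this family have many near-identical copies in the genome, so that the counts of single members are uncertain.

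Nuclear subunits of respiratory complex I, the entry point of electrons from NADH, had 7 of 37 higher and 1 lower, and 3 were higher without IS replicate 1 or without FIDch replicate 1 and 12 without IS replicate 3. By sign, 19 of 37 were higher in FID and lower in IS with choline, against 27.6% of all genes, with medians of 0.07 and -0.07. Ndufs7, an iron-sulphur subunit of the complex, stood at 66.9, 53.4, 51.2 and 55.4 CPM in IS, 55.8, 52.4, 48.8 and 49.3 in ISch, 49.6, 53.7, 49.2 and 49.1 in FID and 67.2, 59.9, 61.1 and 59 in FIDch. FIDch lay above FID in every library, and the IS and ISch ranges overlapped, for an interaction of 0.44 ± 0.11. Ndufa5 was the member with a lower value, -0.28 ± 0.09. Complexes II to IV had 2 of 26 higher, ATP synthase 2 of 14 and mitochondrial ribosomal proteins 4 of 72, none of them lower. Without IS replicate 1 these counts were 0, 0 and 2, and without IS replicate 3 they were 9, 6 and 10.

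Mitochondrially encoded transcripts met the criterion in 5 of 13 cases, 4 higher and 1 lower, and the choline effect was largest in IS, with 9 lower and 2 higher at the criterion in IS and 3 lower and 1 higher in FID. The choline effects had opposite signs in 1 of 13. Mt-nd2 was measured at 8922, 8515, 8658 and 7924 CPM in IS, 5715, 4947, 5424 and 5134 in ISch, 7894, 8548, 7683 and 8217 in FID and 7988, 5206, 8092 and 7474 in FIDch. All 4 ISch libraries lay below all 4 IS libraries, and FIDch replicate 2 lay far below the other FIDch libraries. The Mt-nd2 interaction was 0.51 ± 0.13, from -0.17 in FID and -0.68 in IS. Mt-nd1 had 0.52 ± 0.12 and Mt-co3 0.28 ± 0.10, while Mt-co2 went the other way, -0.25 ± 0.08.

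Glucocorticoid receptors and targets, the genes through which stress hormones act on hippocampal neurons and glia, had 6 of 16 higher and 1 lower, with a median interaction of 0.33, from 0.14 in FID and -0.14 in IS. Without the 3 libraries whose names are written in another form, 1 was higher and 2 were lower, and the median interaction was 0.25. That fit also has fewer ISch and FIDch libraries, and the part of this in the counts was not tested. With single libraries left out, 4 to 6 were higher and 1 lower. Sgk1, a kinase induced by glucocorticoids, was measured at 58.5, 79.5, 63.1 and 66.5 CPM in IS, 55.1, 57.5, 64.7 and 67.7 in ISch, 58, 60, 56.6 and 82.4 in FID and 100.5, 121, 71.9 and 67.9 in FIDch. FIDch replicates 1 and 2 lay above the rest, and FID replicate 4, the library with choroid plexus markers, lay above the other FID libraries. The interaction of Sgk1 was 0.59 ± 0.22, or 0.32 without the 3 libraries (unadjusted p = 0.17 by edgeR). Per1, a clock gene with a glucocorticoid response element, had 0.43 ± 0.15, and 0.20 without the 3 libraries. Mt2A, a metallothionein, had 0.62 ± 0.19. Nr3c2, the mineralocorticoid receptor, had -0.39 ± 0.14, and IS replicate 1 was again the lowest of the IS libraries.

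**Figure D4:**
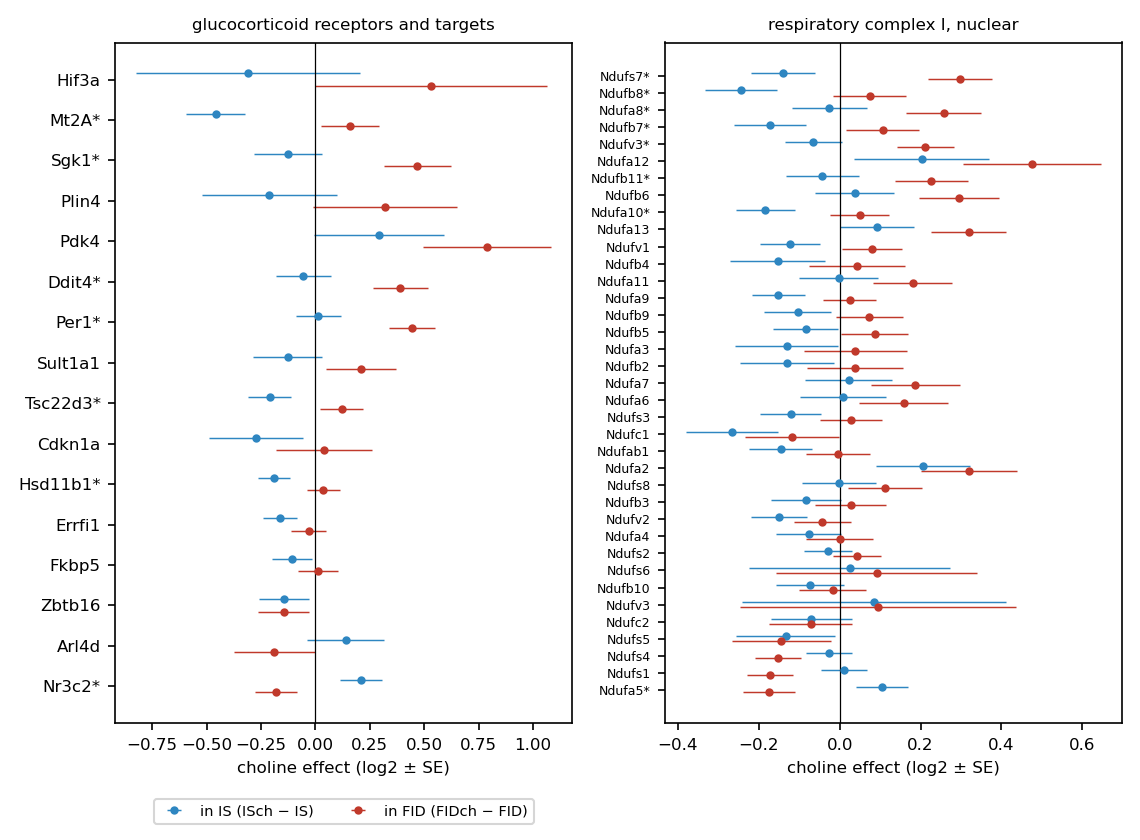
Choline effect in IS (blue) and in FID (red), log2 ± SE (horizontal), for every tested member (vertical) of the lists of glucocorticoid receptors and targets and of nuclear complex I, ordered by the interaction; an asterisk marks a member at the interaction criterion. For Sgk1 and Ndufs7, red lies right of 0 and blue left of it, and for Nr3c2 the order is reversed.

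Developmental signals and adhesion molecules gave smaller counts. BMP and TGF-beta signalling had 3 of 35 lower, Bmp3 among them, and Bmpr1a, a type I receptor for these ligands, had -0.53 ± 0.13, with -0.34 in FID and 0.19 in IS. Without IS replicate 3 the number was 7. Axon guidance and ephrins had 6 of 61 lower and 2 higher, with Epha3 at -0.56 ± 0.17, Sema4d at 0.36 ± 0.09 and Epha8 at 0.64 ± 0.21. Of 23 imprinted genes, 4 were lower and none higher, with 2 (such as without ISch replicate 1) to 6 (such as without IS replicate 2) lower over single libraries left out. Usp29, a paternally expressed deubiquitinase, was measured at 75.2, 81.7, 88.6 and 82.3 CPM in IS, 88.8, 88.9, 89.4 and 85.6 in ISch, 89.1, 90.6, 93.6 and 103 in FID and 69.9, 82.5, 75.2 and 71.6 in FIDch. FIDch lay below FID in every library, and the interaction was -0.44 ± 0.09. Ube3a, the ubiquitin ligase of Angelman syndrome, had -0.62 ± 0.18, with -0.32 in FID and 0.31 in IS, and -0.51 without IS replicate 1.

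Genes of iron handling, the substrate of the first factor, had 1 of 32 at the criterion, below 14.4% over all genes. It was Tfrc, the transferrin receptor, which was measured at 160.2, 172, 200.0 and 151 CPM in IS, 173, 165, 179 and 179 in ISch, 182, 208, 179.9 and 221 in FID and 173, 168, 163 and 163 in FIDch and had an interaction of -0.27 ± 0.11. The value missed the criterion without IS replicate 4 or FID replicate 4. Genes of choline, phosphatidylcholine and one-carbon metabolism had 3 of 41 higher and 2 lower, near the background. Beside Cbs, Pcyt2, an enzyme of phosphatidylethanolamine synthesis, had 0.33 ± 0.11 and Slc19a1, the reduced folate carrier, had 0.47 ± 0.18. DNA and histone methylation enzymes had 3 higher and 3 lower of 47, with 6 lower without FIDch replicate 2, and SR proteins and splicing factors had 4 and 4 of 49, with 1 lower without IS replicate 1 and 7 without IS replicate 3.

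Antioxidant defence had 5 of 27 higher and none lower, and 2 higher and 1 lower without IS replicate 1. Sod3, the extracellular superoxide dismutase, had 0.50 ± 0.13, mainly from IS, -0.31. Heat shock proteins had 5 of 41 lower and 1 higher. Hsp90aa1, a stress-inducible chaperone, stood at 14.7, 19.6, 20.4 and 16.8 CPM in IS, 21.3, 18.3, 12.1 and 12.1 in ISch, 36.6, 29.8, 21.6 and 26.9 in FID and 14.8, 8.2, 11.4 and 9.24 in FIDch. FIDch lay below FID in every library, and the interaction of -1.19 ± 0.28 came from FID, -1.35, against -0.16 in IS. It was -0.73 without the 3 libraries named in another form. Extracellular matrix had 7 higher and 4 lower of 59, and 3 higher without IS replicate 3 or FIDch replicate 1. Immediate early genes had 2 higher of 36, and 5 without ISch replicate 3. Hypoxia factors and glycolysis had 5 higher and 3 lower of 32, and 2 higher without ISch replicate 2 or FIDch replicate 1.

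Some lists of cell type markers also had members at the criterion. Astrocyte markers had 6 of 20 higher and 1 lower, among them Glul, glutamine synthetase, at 0.30 ± 0.09 and Aldoc at 0.28 ± 0.10, and endothelial and mural markers had 5 of 23 higher and none lower, among them Cldn5, a tight junction protein of the blood-brain barrier, at 0.54 ± 0.15 and Tagln at 0.61 ± 0.20. The summed CPM of astrocyte markers was 9049 to 10109 in IS, 8845 to 9527 in ISch, 8572 to 9578 in FID and 9333 to 10024 in FIDch. The group means were 9517, 9217, 9082 and 9527 CPM in the same order, and the ranges overlapped. Oligodendrocyte markers had 3 of 31 higher and 1 lower. Mbp, myelin basic protein, was measured at 3138, 3096, 3176 and 3580.5 CPM in IS, 3019.5, 3157, 3222 and 3057 in ISch, 3023, 2768, 2552 and 2849 in FID and 3777, 3107, 3671 and 3208 in FIDch, with FIDch above FID in every library and an interaction of 0.36 ± 0.09, whereas Ermn, another myelin-sheath protein, had -0.47 ± 0.12. Markers of CA1 pyramidal neurons had 3 of 10 lower, among them Ndst4 at -1.04 ± 0.30 and Pex5l at -0.58 ± 0.20. Over single libraries left out, both were weakest without IS replicate 1, at -0.81 and -0.40. Dentate gyrus markers had 3 of 12 higher, but none without IS replicate 1, without FIDch replicate 1 or without the 3 libraries named in another form. Astrocyte markers ranged from 4 (without IS replicate 4) to 8 (without IS replicate 2) higher over single libraries left out. Microglial and choroid plexus markers had none of 20 and none of 5. The part of cell type composition in these results was not tested.

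The same contrast was computed in the 16 female libraries of batch II, whose totals were 18439999 to 26616318 counts. There, 1097 of 14975 genes met the criterion (7.33%), 474 higher (3.17%) and 623 lower (4.16%), and 1 gene had an adjusted p below 0.05 by edgeR (0.00668%). Of the 2066 genes at the criterion in males, 2024 were tested in females, and 1094 had the same sign (54.1%), against 52.0% of all genes tested in both. 73 met the criterion in both with the same sign and 67 with the other sign. The 57 genes with opposite effects in males had the same sign of the interaction in 30 cases in females, and the same pair of signs in both iron states in 9. Of all genes tested in both, 52.0% had the same interaction sign. Their share with the same pair of signs was not computed.

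Members of the GABA receptor list had 3 of 16 lower and 1 higher in females, with a median of -0.10. For Ndst4 the female interaction was -0.90 (unadjusted p = 0.00385 by edgeR) beside -1.04 in males. Sec23ip had -0.02 in females beside -0.76 in males, and Bmp3 had 0.27 beside -1.55. A test of the difference between the batches in 1 model of 32 libraries gave an adjusted p below 0.05 for 4 of 15520 genes (0.0258%). None of the 70 genes chosen for their male values was among these, and 39 of the 70 had an unadjusted p below 0.05 by edgeR. Over all genes that share was 12.6%. The choice by male values favours such a difference, as the same male libraries enter it. For Sec23ip that unadjusted p was 8.23e-05, for Neu1 3.64e-05 and for Ermn 6.82e-05. Neu1 had -0.34 in females (unadjusted p = 0.0257 by edgeR) beside 0.63 in males. Ermn had 0.27 in females (unadjusted p = 0.0250 by edgeR) beside -0.47 in males. Of the 70 genes, 14 had an unadjusted p below 0.05 by edgeR in females, 11 of them with the same sign as in males. Complex I had none of 36 and cytosolic ribosomal proteins had 3 of 76 higher and 1 lower in females. The glucocorticoid list had 1 of 18 higher and 0 lower there. Markers of CA1 had 4 of 10 lower and 0 higher in females, and postsynaptic scaffolds 10 of 30 lower and 0 higher. Potassium channels had 13 of 74 lower and 1 higher, where 4.16% of all genes were lower and 3.17% higher in females. Immediate early genes, near the background in males, had 11 of 37 lower in females.

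**Figure D5:**
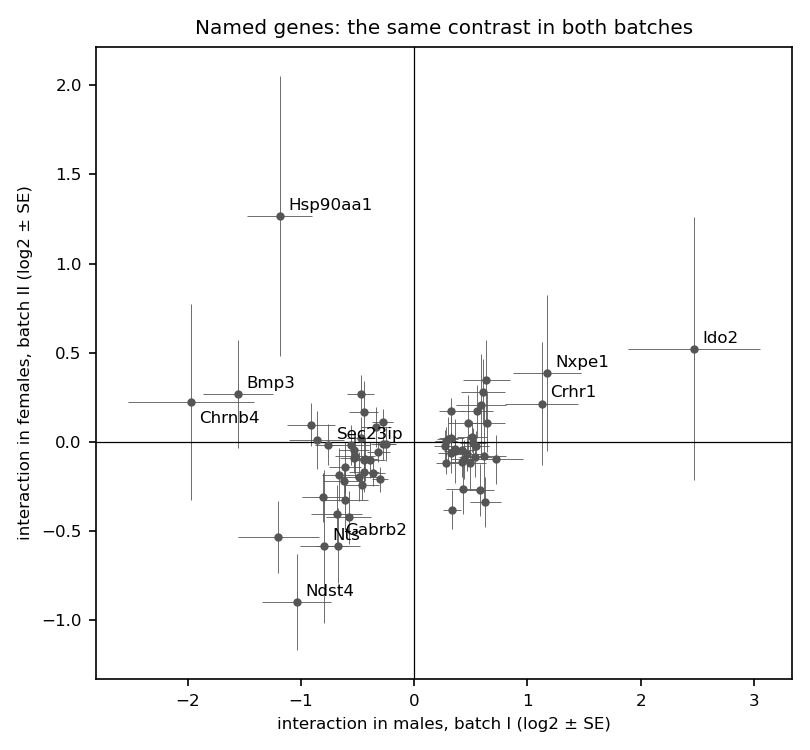
Interaction in males of batch I (horizontal) and in females of batch II (vertical), log2 ± SE, for the 70 genes chosen for their male values. All of these but Olig1 are named in the text. Points in the lower left and upper right have the same sign in both, which holds for 41 of 70. Gabrb2, Nts and Ndst4 lie below 0 in both, and Hsp90aa1 lies at opposite sides.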

How the data were processed

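Hippocampal RNA of 32 rats was sequenced after library preparation with TruSeq RNA v2. Per the labels and the methods of the study, the authors processed reads with FastQC, Trimmomatic and HISAT2, counted them on genes with featureCounts (Subread) and deposited raw counts per gene, with no normalization. The submitters' notes name Rnor_6.0. The strand setting and the treatment of multiply mapped reads are not given in the sources used here. The table held 32883 entries, of which 2799 shared a symbol with another. Such entries, among them those of Ndufv3, Rpl21 and Hba-a2, were counted separately in the gene lists.

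Groups came from the diet, sex and batch labels. The counts were fitted with edgeR 4.0.16 in R 4.3.3: filterByExpr, TMM scaling, a group-means model of 16 libraries and quasi-likelihood F tests of (FIDch − FID) − (ISch − IS), with Benjamini-Hochberg adjustment over 14314 genes. The study's criterion, |log2| above 0.2 with unadjusted p below 0.05, was applied. Interactions and choline effects share the same libraries and are not independent. Named genes were those with the lowest p in the interaction, among opposite effects and in each list, and some candidates were left out. Some members counted in the lists are not reported by name here. The members and gene lists were chosen with earlier results of these data known. The pipeline was tested on simulated data. Totals were 3515806 to 9517503 counts per library, and the limit for a count of 0 (3 counts, 95% confidence) covers counting error only. Labels describe 4 biological replicates per treatment.

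Replicates of a group were no duplicates, with a chi-square per gene of 2.02 to 11.0 over the pairs. Alternatives were DESeq2 1.42.0, limma-voom 3.58.1, a likelihood ratio test, other scalings and filters, a replicate block and single libraries left out. Promoters and gene overlaps came from RefSeq GRCr8, and no coordinates of the counted genes were used. Besides Lrrtm2 and Kcnh7, Glul overlaps Rgsl1 and others there, and Rpl29 overlaps Pik3r4 and others. Their counts are uncertain for that reason too. Some other named genes overlap pseudogene or tRNA entries. Gene lengths and a genome of the build of the counts were not used here. Columns of the other batch served for the comparison of batches alone.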

Additional observations from a re-analysis of the deposited data

Results flagged for a closer look

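Of 308 groups of 4 libraries examined (the 70 genes chosen for their male values, library totals and shares, and 4 summed lists in each diet group), 25 held 1 library far from the other 3, with the gap to the nearest, divided by the range, above Dixon's 95% critical value. Chance alone gives about 1 in 20 such groups. IS replicate 1 was the lowest of its group for Akap10 at 19.2 CPM against 27.3 to 28.9, Gabrb2 at 29.3 CPM against 59.2 to 63.2, Chrna7 at 43 CPM against 58.9 to 60.4, Nr3c2 at 75.5 CPM against 106 to 109.9 and the summed GABA receptor subunits at 3103 CPM against 3466 to 3495. IS replicate 1 was the highest of its group for Rplp1 at 157 CPM against 69.2 to 81.2 and Pcyt2 at 93 CPM against 75.1 to 76. FIDch replicate 2 was the lowest of its group for Mt-nd1 at 4789 CPM against 6441 to 6714, Mt-co3 at 6275 CPM against 8384 to 8488, the mitochondrially encoded share at 5.81% against 6.71 to 6.87% and the summed mitochondrially encoded transcripts at 57773 CPM against 67406 to 68401. FIDch replicate 2 was the highest of its group for Htr4 at 6.78 CPM against 5.55 to 5.75. FID replicate 4 was the lowest of its group for Aldoc at 652 CPM against 766 to 772. FID replicate 4 was the highest of its group for Sgk1 at 82.4 CPM against 56.6 to 60 and the summed choroid plexus markers at 571 CPM against 102 to 131. ISch replicate 4 was the lowest of its group for Akap10 at 29.3 CPM against 32.9 to 33.1 and Usp29 at 85.6 CPM against 88.8 to 89.4. FIDch replicate 1 was the lowest of its group for Gabrb2 at 46.2 CPM against 54.8 to 55.5. FIDch replicate 1 was the highest of its group for Rplp1 at 123 CPM against 111 to 112. ISch replicate 2 was the highest of its group for Grin2c at 137 CPM against 126 to 128. FID replicate 3 was the lowest of its group for Ermn at 82.4 CPM against 100.4 to 102. FID replicate 3 was the highest of its group for Scn3a at 77.4 CPM against 63.4 to 64.4. FIDch replicate 4 was the highest of its group for Htr1b at 18.2 CPM against 15.1 to 15.3. FID replicate 2 was the highest of its group for Ndufs7 at 53.7 CPM against 49.1 to 49.6. IS replicate 4 was the highest of its group for Mbp at 3580.5 CPM against 3096 to 3176. The part of these libraries in the interaction was not tested beyond the values without them.

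The interaction differed between males of batch I and females of batch II for 4 genes at an adjusted p below 0.05 in the edgeR model of 32 libraries, and these 4 were chosen after their values were seen. Prrt1 had 0.38 in males and -0.21 in females, a difference of 0.57 (log2). Slc9a4 had -0.47 in males and 0.53 in females, a difference of -1.02 (log2). AABR07001512.1 had 1.76 in males and -3.98 in females, a difference of 5.67 (log2). Trappc2 had -0.36 in males and 0.23 in females, a difference of -0.62 (log2). Neither sex nor batch can be named as the source, and AABR07001512.1 is a low gene, with group means of at most 2.12 CPM in males.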

How the results depend on the processing

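The counts with an adjusted p below 0.05 moved most. For the interaction (1 gene by edgeR's quasi-likelihood test, with 2210 genes at an unadjusted p below 0.05) they were 86 by the likelihood ratio test, 131 by DESeq2, 3 by limma-voom, 3 with all genes counted at least once, 3 without the 3 libraries named in another form and 0 with a replicate block. For choline in FID (264) they were 446 by the likelihood ratio test, 454 by limma-voom, 164 with the replicate block, 117 without the 3 libraries and 154 without ISch replicates 1 and 2, an alternative chosen after seeing the data. For choline in IS (37) they were 112 by the likelihood ratio test, 67 by DESeq2, 73 with all genes, 21 without the 3 libraries and 12 without ISch replicates 1 and 2. For the difference between the batches (4) they were 7 with RLE size factors, 2 with all genes and 75 by the likelihood ratio test. The cause was not tested.

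The opposite genes (57) were 88 by limma-voom (34 higher in FID and lower in IS, 54 the other way), 96 with all genes (68 lower in FID and higher in IS), and 119 with no limit on the log2 value, and DESeq2 gave 14 higher in FID and lower in IS.

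Leaving out single libraries gave 0 to 8 adjusted calls for the interaction, 41 (without FIDch replicate 1) to 485 (without IS replicate 1) for choline in FID, and 1 to 33 for the batch difference. The criterion was met by 762 (without IS replicate 1) to 1915 (without IS replicate 3) genes for choline in IS and by 651 to 1227 for a higher choline effect in FID. Opposite genes ranged from 29 (without FIDch replicate 1) to 116 (without IS replicate 3), with 14 to 37 higher in FID and lower in IS and 14 to 85 the other way.

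Replicate numbers did not pair the libraries: the deviations of 24 same-numbered pairs correlated between -0.15 and 0.22, with a mean of -0.0066 against 0.0020 for different numbers, and 5 of 16 libraries correlated best with their own number. With the block, the adjusted interaction count was 0 and that of choline in FID 164. No named gene changed sign under any of 27 alternatives. Named genes had been chosen for a low p, so their staying at the criterion is no support. Grm5, Per1, Sgk1, Slc19a1, Scn3a and Tfrc missed it under at least 1 alternative. Depth limits low genes such as Ido2 and Chrnb4.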

Other observations

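Further gene lists, given here as counts for the same interaction and read against the background of 6.84% of all tested genes higher and 7.59% lower, held few members at the criterion. Clustered protocadherins, adhesion molecules that give neurons their surface identity, had 3 of 35 lower and 1 higher, with a median of -0.20. Synaptic vesicle release had 3 lower and 2 higher of 53, microtubules and motors 4 lower and 2 higher of 46, and actin regulators 4 lower and 2 higher of 40. Neurotrophins and receptors had 1 lower of 27, and Wnt signalling had 3 higher and 2 lower of 34. Autophagy, lysosome and mTOR genes had 3 lower and 2 higher of 42. The circadian clock list had 2 higher and 2 lower of 21, above the background in both directions but on 4 genes. Proteasome subunits had 1 higher of 37, cholesterol synthesis and lipid transport 1 higher of 26, amyloid precursor processing and tau 1 lower of 20, and interferon response, MHC and complement 3 lower and 1 higher of 47. Histones had none of 11. Over single libraries left out, each of these counts and of those that follow moved by at most 3 genes, which for most is more than 1.5 times the count.

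Among markers of neurons and of neighbouring tissue, excitatory neurons had 2 higher and 1 lower of 10, interneurons 2 lower and 1 higher of 17, and CA2 and CA3 neurons 3 higher and 1 lower of 15. Markers of meninges had 1 higher and 1 lower of 10, striatum 1 and 1 of 11, thalamus and habenula 2 higher and 1 lower of 13, and blood 1 higher of 4. With so few members, shares of these marker lists move by several percentage points with 1 gene.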
